A study of Homo sapiens with 18 samples.

Results

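The genes described here build and anchor the actin cytoskeleton: actin itself, the proteins that tie actin filaments to integrins at focal adhesions, non-muscle myosin, and the factors that nucleate, elongate, sever and cross-link filaments. The 47 members were chosen by gene symbol from a given list, and each symbol matched 1 row of the 57445 genes in the count table. Of these, 46 passed the expression filter and were tested. FLNC, the filamin of muscle, did not pass: it was at 0 counts in 16 of 18 libraries and at most 0.0184 CPM as a group mean, where CPM is edgeR's measure of counts relative to the scaled library size. The 46 tested members were detected in every library, and the lowest value was 0.661 CPM for TLN2 in lagger replicate 1.

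RNA came from MiaPaCa-2, an established human pancreatic cancer line recorded as genotype WT, in 6 groups of 3 libraries. The parental group was kept in vitro and never injected. In the other groups cells had been placed in a sciatic nerve and taken out again: laggers and leaders of passage 1, and leaders of passages 2, 3 and 4. Leaders of one passage were grown in culture and part of them was injected again, so each later passage descends from the one before it. For the host species, and for whether RNA was taken at harvest or after regrowth, nothing is given in the sources used here. Replicates are not described as separate cultures or separate hosts, so a p-value here reflects only how far these samples spread, and that spread may be technical. All results are from 1 cell line and from bulk RNA, in which fewer cells of a type and less RNA per cell cannot be told apart.

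Gene counts ran from 15113462 to 39373248 per library, and the members together took 4.78% to 5.63% of them in the parental line, 4.04% to 4.78% in laggers, 3.63% to 3.83% in passage 1 leaders and 4.47% to 5.40% in later leaders. Of the genes read for the identity of the line, VIM, KRT8 and KRT18 averaged at least 1826 CPM in every group. KRT19 averaged from 532 CPM in passage 4 leaders to 1254 CPM in passage 1 leaders. CDKN2A, read as a level, averaged 0.14 CPM in laggers and had no counts in the other groups. Mitochondrially encoded RNA took 0.472% to 0.873% of gene counts in parental libraries, 5.60% to 8.57% in laggers and passage 1 leaders and 1.95% to 3.90% in later leaders. Reads with more than one alignment took 13.9% to 16.4% of all entries in parental libraries and 20.2% to 32.6% in injected ones. Libraries that stood apart from their group by unaligned reads were parental replicate 3 with 10.1%, lagger replicate 3 with 16.5% and passage 3 leader replicate 2 with 24.8%. Passage 1 leader replicate 2 was the highest or the lowest of its group for all 46 tested members, 30 times highest and 16 times lowest. The part of these differences in the results below was not tested, and results that rest on 1 library are given with and without it.

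Cells pull on their surroundings through focal adhesions. There, talin joins the tails of integrins to actin, vinculin and alpha-actinin reinforce the link, and paxillin and focal adhesion kinase relay signals. Myosin II contracts the filaments under control of the kinases ROCK1 and ROCK2, while the Arp2/3 complex makes branched networks and formins make straight bundles. Many genes of this machinery are known targets of serum response factor (SRF), which binds the CArG box and whose cofactors are held by unpolymerised actin.

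Injected cells of passage 1 had less RNA of most adhesion plaque genes and more RNA of some Arp2/3 subunits than the parental line, and in passage 4 leaders most plaque genes were again higher than in passage 1. A member is called higher or lower where edgeR's quasi-likelihood test, adjusted by Benjamini-Hochberg over all 16187 tested genes, gave an adjusted p under 0.05. In laggers against the parental line, 7 of the 46 tested members rose and 19 fell, where 39.3% of all tested genes were called, 21.5% higher and 17.8% lower. In passage 1 leaders, 7 members rose and 22 fell (45.7% of all tested genes called, 23.2% higher and 22.4% lower). In passage 2 leaders, 7 rose and 9 fell (29.9%, 15.1% and 14.8%), and in passage 3 leaders 5 rose and 5 fell (24.6%, 13.8% and 10.8%). In passage 4 leaders, 11 rose and 8 fell (27.7%, 14.8% and 12.9%). The share of members called was above the background in laggers (56.5%), passage 1 leaders (63%) and passage 4 leaders (41.3%), and nearer to it in passages 2 (34.8%) and 3 (21.7%). In passage 1 the excess was among lower calls (41.3% of members in laggers and 47.8% in leaders). The median log2 fold change of the tested members was -0.47, -0.47, -0.18, 0.00 and 0.14 in these comparisons, beside medians of 0.09, 0.07, 0.00, 0.01 and 0.03 over all tested genes. These 5 comparisons share the 3 parental libraries, so they are not independent of each other.

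The counts of called members depended on single libraries in the later passages. Without passage 2 leader replicate 3 the count was 8 (17.4% of members, beside 19% of all genes called in that setting), and without parental replicate 3 the passage 3 count was 6 (13%, beside 15.4%). The passage 4 count was 11 (23.9%) without passage 4 leader replicate 1 or 2, beside 19.4% and 18% of all genes, so the excess over the background was smaller there. Fitted with the compared groups only, 16 members were called in laggers (34.8%, beside 22.9% of all genes). With the 3 libraries of most unaligned reads left out, a setting added after the data were seen, the counts were 28, 27, 16, 9 and 18, beside 34.8%, 43.2%, 25.9%, 19.8% and 25.1% of all genes, and in passage 3 the split was 7 higher and 2 lower.

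**Figure D1:**
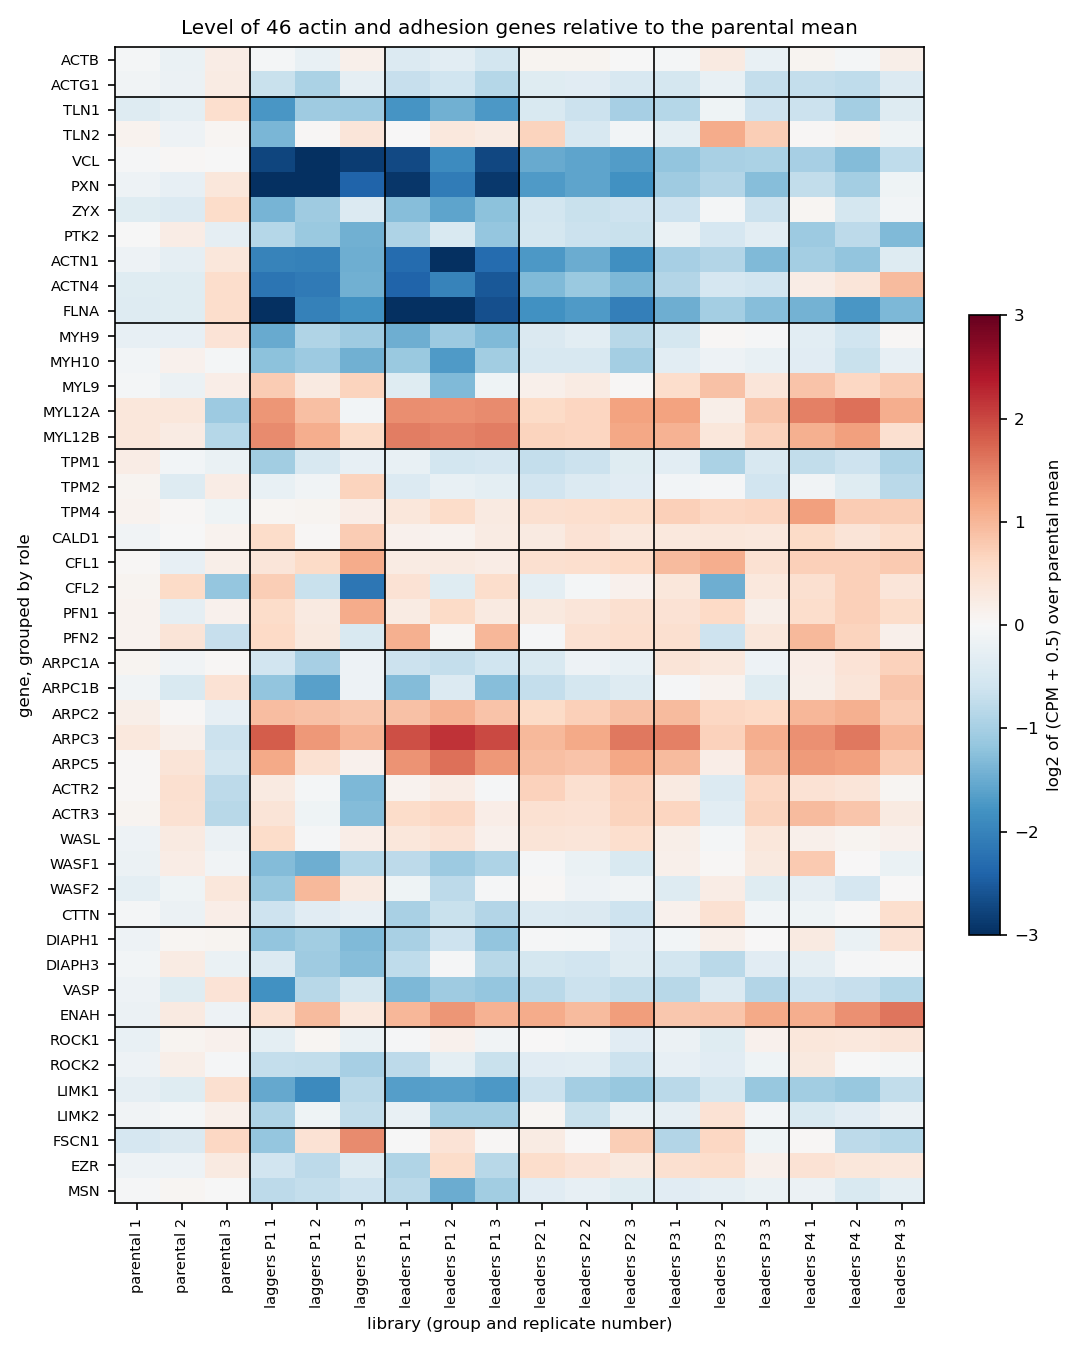
Level of 46 members in each of 18 libraries (columns), as log2 of CPM plus 0.5 over the parental mean, with rows grouped by role and colours capped at 3 on either side. The plaque genes are blue in laggers and passage 1 leaders and paler in later passages, while ARPC2, ARPC3 and ENAH are red in all injected groups.

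Promoter sequence is shown for the 5 members that hold a CArG box, because SRF targets are a textbook feature of this gene set and the 5 genes did not all move the same way. Of the 47 members, 39 had promoters in the RefSeq table (build GRCh38.p14; 300 bases per start, from 250 before the start to 50 after it). A CArG box on either strand was found in 5 of their 63 promoter windows (7.94%), against 454 of 35116 windows in the whole table (1.29%). FLNA and ACTG1 have 1 start in the table, and the box lies at 1 of 4 starts of ACTN1, 1 of 3 of TPM4 and 1 of 2 of ROCK2. CATTCC, the core letters that TEAD factors bind, lay on either strand in 12 of 63 windows (19%), against 4928 of 35116 (14%). The 250 bases before the start follow, 5′ to 3′ on the gene's strand, with the CArG box in capitals. A match in letters is a description of the sequence and not a measured site.
FLNA promoter (chrX:154374635-154374884, minus strand): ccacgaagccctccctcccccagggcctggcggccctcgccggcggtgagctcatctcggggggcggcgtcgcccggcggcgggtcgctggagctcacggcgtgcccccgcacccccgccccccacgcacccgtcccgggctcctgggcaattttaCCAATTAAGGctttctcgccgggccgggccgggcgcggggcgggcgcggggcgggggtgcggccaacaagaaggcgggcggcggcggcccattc
ACTN1 promoter (chr14:68977567-68977816, minus strand): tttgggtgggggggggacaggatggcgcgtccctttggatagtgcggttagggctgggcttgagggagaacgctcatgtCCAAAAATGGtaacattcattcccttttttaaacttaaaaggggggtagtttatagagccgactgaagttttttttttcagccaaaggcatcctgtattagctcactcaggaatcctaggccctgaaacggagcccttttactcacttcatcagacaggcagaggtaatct
ACTG1 promoter (chr17:81512800-81513049, minus strand): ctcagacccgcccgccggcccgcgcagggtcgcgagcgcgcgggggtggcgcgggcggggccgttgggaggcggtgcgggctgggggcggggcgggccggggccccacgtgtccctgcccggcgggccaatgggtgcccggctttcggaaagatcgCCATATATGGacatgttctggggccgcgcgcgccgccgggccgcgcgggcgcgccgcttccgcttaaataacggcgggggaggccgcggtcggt
TPM4 promoter (chr19:16067288-16067537, plus strand): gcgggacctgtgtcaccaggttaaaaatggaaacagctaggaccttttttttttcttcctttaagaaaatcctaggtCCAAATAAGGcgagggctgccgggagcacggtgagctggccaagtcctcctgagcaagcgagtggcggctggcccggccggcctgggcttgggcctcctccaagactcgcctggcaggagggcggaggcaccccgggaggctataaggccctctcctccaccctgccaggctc
ROCK2 promoter (chr2:11345438-11345687, minus strand): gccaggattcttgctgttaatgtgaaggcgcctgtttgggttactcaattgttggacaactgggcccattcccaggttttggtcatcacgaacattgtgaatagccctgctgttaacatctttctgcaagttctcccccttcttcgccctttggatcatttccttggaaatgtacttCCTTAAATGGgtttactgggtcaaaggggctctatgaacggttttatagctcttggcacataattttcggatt
In passage 1 leaders against the parental line, the log2 fold changes of these 5 genes were -3.07 for FLNA, -2.56 for ACTN1, -0.71 for ACTG1, -0.57 for ROCK2 and 0.39 for TPM4. Of the genes with a box, 4 were called lower and TPM4 was called higher, but the TPM4 call was lost in 8 of 14 alternatives and the ROCK2 call in 3 of 14.

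The adhesion plaque held the largest decreases. Of its 10 members 9 were tested, and 8 of them fell in laggers and 8 in passage 1 leaders, the exception being TLN2 both times. Lower calls numbered 6 in passage 2, 4 in passage 3 and 4 in passage 4, and the others were not called. The shares called lower were 88.9%, 88.9%, 66.7%, 44.4% and 44.4%, beside 17.8%, 22.4%, 14.8%, 10.8% and 12.9% of all tested genes. The median log2 fold change of the 9 genes was -1.80 for laggers, then -2.31, -1.27, -0.65 and -0.66 over leader passages 1 to 4.

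VCL encodes vinculin, which binds talin and actin where an adhesion is under tension. It was counted at 1008, 1050.4 and 1017 CPM in the parental libraries, 151, 117 and 141 CPM in the laggers, and 156, 276 and 154, then 356, 341 and 321, then 450.3, 523 and 535, then 511, 415 and 609 CPM in leaders of passages 1, 2, 3 and 4. Values are in the order of replicates 1 to 3. All 15 injected libraries were below the parental ones, laggers were lowest, and the means rose from passage 1 to 2 to 3. The log2 fold change with its standard error (SE) was -2.91 ± 0.22 in laggers (edgeR adjusted p = 2.18e-07), a level 7.51-fold lower than in the parental line. For leaders it was -2.39 ± 0.22, -1.60 ± 0.21 and -1.03 ± 0.21 at passages 1 to 3 (edgeR adjusted p = 1.06e-06, 5.67e-05 and 0.00217). At passage 4 the 95% interval of the log2 fold change was -1.44 to -0.56 (edgeR adjusted p = 0.00229). The calls for VCL held in every alternative run.

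PXN encodes paxillin, a docking protein for adhesion signalling. Its levels were 368, 347 and 516 CPM in the parental libraries, 48.2, 42.1 and 76.8 CPM in the laggers, and 54.2, 95.2 and 55.0, then 126, 137 and 117, then 196, 224 and 168, then 248, 202 and 374 CPM in leaders of passages 1, 2, 3 and 4. Laggers and leaders of passages 1 to 3 were all below the parental range, and passage 4 replicate 3 lay inside it. PXN fell in laggers (-2.88 ± 0.30, edgeR adjusted p = 4.13e-06), in passage 1 leaders (-2.59 ± 0.30, edgeR adjusted p = 8.55e-06), in passage 2 (-1.70 ± 0.29, edgeR adjusted p = 0.000459) and in passage 3 (-1.07 ± 0.28, edgeR adjusted p = 0.0119), but the passage 3 call was lost without parental replicate 3 or passage 3 leader replicate 3 (-0.87 to -0.97). In passage 4 its log2 fold change was -0.58 ± 0.28, edgeR adjusted p = 0.136.

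TLN1 encodes talin 1, which activates integrins and couples them to actin. Its levels were 424, 448 and 786 CPM in the parental libraries, 165, 264 and 258 CPM in the laggers, and 162, 204 and 167, then 401, 352 and 278, then 307, 505 and 358, then 355, 273 and 423 CPM in leaders of passages 1, 2, 3 and 4. Parental replicate 3 was far above the other parental libraries, and laggers and passage 1 leaders were below all 3. TLN1 fell in laggers (-1.27 ± 0.27, edgeR adjusted p = 0.00179) and in passage 1 leaders (-1.64 ± 0.28, edgeR adjusted p = 0.000207), and was not called in passages 2 to 4 (-0.68, -0.50 and -0.66). TLN2, its paralogue, stayed between 0.661 and 5.92 CPM and was called in no comparison.

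ZYX encodes zyxin, which is recruited to strained filaments and adhesions. Its levels were 372, 359 and 704 CPM in the parental libraries, 181, 229 and 363 CPM in the laggers, and 197, 160.1 and 204, then 326, 301 and 313, then 312, 461 and 304, then 497, 334 and 449 CPM in leaders of passages 1, 2, 3 and 4. In passage 1 leaders all 3 libraries were below the parental range and ZYX fell (-1.36 ± 0.29, edgeR adjusted p = 0.00125). In laggers replicate 3 lay inside the parental range, and the call (-0.89 ± 0.28, edgeR adjusted p = 0.02) was lost without parental replicate 3 or lagger replicate 1 or 2 (-0.51 to -0.82). That call was also lost with the compared groups only.

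PTK2 encodes focal adhesion kinase. It was counted at 289, 337 and 242 CPM in the parental libraries, 159, 133 and 106 CPM in the laggers, and 152, 209.8 and 130.0, then 201, 186 and 182, then 253, 203 and 232, then 135, 167 and 114 CPM in leaders of passages 1, 2, 3 and 4. Laggers and leaders of passages 1, 2 and 4 were below all parental libraries and passage 3 overlapped them. PTK2 fell in laggers (-1.12 ± 0.21, edgeR adjusted p = 0.000633), in passage 1 leaders (-0.82 ± 0.21, edgeR adjusted p = 0.00468) and in passage 4 leaders (-1.06 ± 0.21, edgeR adjusted p = 0.00162). The call in passage 2 (-0.61 ± 0.21, edgeR adjusted p = 0.0367) was lost without parental replicate 1 or 2 or passage 2 leader replicate 1, 2 or 3 (-0.47 to -0.65). Its level in passage 4 was 139 CPM, beside 164 CPM in passage 1 (log2 fold change -0.24 ± 0.21, edgeR adjusted p = 0.444; interval -0.68 to 0.20).

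FLNA encodes filamin A, which cross-links filaments into networks and binds integrin tails. Its levels were 2147, 2195 and 4075 CPM in the parental libraries, 349, 686 and 795 CPM in the laggers, and 340.4, 208 and 451, then 799, 867 and 681, then 1024, 1376 and 1151, then 1045, 842 and 1104 CPM in leaders of passages 1, 2, 3 and 4. No injected library reached the parental range, in which replicate 3 stood apart at the top. FLNA fell 8.41-fold in passage 1 leaders (-3.07 ± 0.34, edgeR adjusted p = 6.56e-06), the largest decrease of any member. It also fell in laggers (-2.20 ± 0.33, edgeR adjusted p = 0.000107) and in passages 2 (-1.84 ± 0.32, edgeR adjusted p = 0.000624), 3 (-1.25 ± 0.32, edgeR adjusted p = 0.00991) and 4 (-1.49 ± 0.32, edgeR adjusted p = 0.00295). The passage 3 call was lost without parental replicate 3 (-0.88).

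ACTN1 and ACTN4 encode the non-muscle alpha-actinins, which bundle filaments and link them to adhesions. ACTN1 was at 815, 749 and 1133 CPM in the parental libraries, 225, 222 and 328 CPM in the laggers, and 181, 94.3 and 182, then 272, 320.0 and 251, then 453, 492 and 361, then 446, 397 and 690.1 CPM in leaders of passages 1, 2, 3 and 4. Every injected library was below every parental one. ACTN1 fell in laggers (-1.80 ± 0.28, edgeR adjusted p = 0.00014), passage 1 (-2.56 ± 0.29, edgeR adjusted p = 6.97e-06), passage 2 (-1.68 ± 0.28, edgeR adjusted p = 0.000378), passage 3 (-1.05 ± 0.27, edgeR adjusted p = 0.0108) and passage 4 (-0.82 ± 0.27, edgeR adjusted p = 0.0347). The passage 3 call was lost without parental replicate 3 or passage 3 leader replicate 3 (-0.85 to -0.93), and the passage 4 call without parental replicate 3 or passage 4 leader replicate 1 or 2 (-0.62 to -0.73). With the compared groups only, the passage 4 call was also lost.

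ACTN4 took another course. Its levels were 135, 133 and 248 CPM in the parental libraries, 37.3, 39.0 and 63.4 CPM in the laggers, and 32.1, 42.7 and 29.1, then 67.8, 78.9 and 67.5, then 93.4, 120.2 and 116, then 199.7, 219.9 and 335 CPM in leaders of passages 1, 2, 3 and 4. Laggers and passage 1 leaders were lowest, while passage 4 leaders lay within or above the parental range. ACTN4 fell in laggers (-1.89 ± 0.29, edgeR adjusted p = 0.000119), passage 1 (-2.31 ± 0.29, edgeR adjusted p = 1.72e-05) and passage 2 (-1.27 ± 0.28, edgeR adjusted p = 0.00317). In passage 4 its log2 fold change was 0.55 ± 0.28, edgeR adjusted p = 0.152, and it was called higher without parental replicate 3 (0.91).

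**Figure D2:**
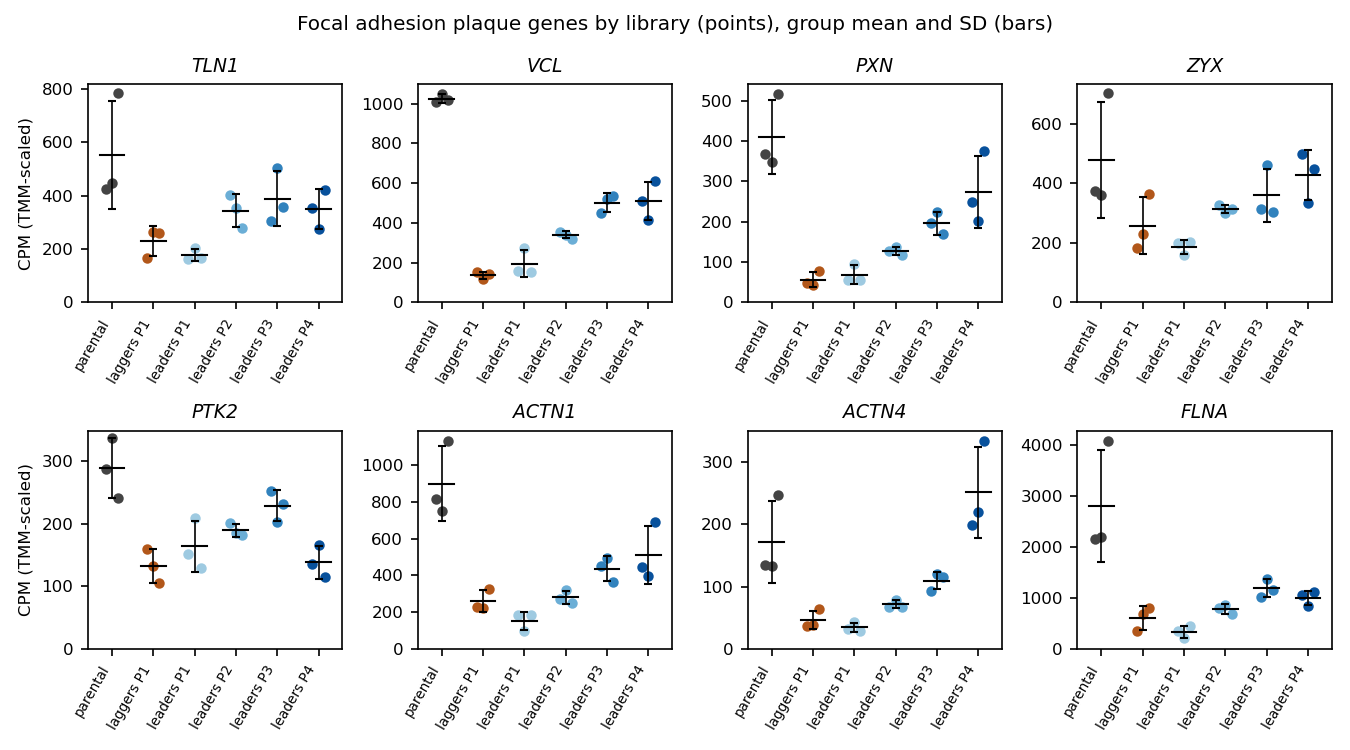
CPM of 8 focal adhesion plaque genes in each library (points) by group, with the group mean and SD (bars, n = 3); axes start at 0. VCL, ACTN1 and FLNA stay below the parental libraries in all injected groups, ACTN4 returns to the parental range in passage 4, and PTK2 is low again there.

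Among the actin isoforms, ACTB (beta-actin) is the most abundant member and ACTG1 (gamma-actin) the next. Per kilobase of exon they stood at 7145 and 3100 CPM in the parental line, above all other members. ACTB was at 24201, 21830.1 and 29403 CPM in the parental libraries, 24188, 21531 and 27895 CPM in the laggers, and 18879, 20084 and 17034, then 26733, 26496 and 24926, then 24156, 30141 and 21702, then 26809.5, 24213 and 28196 CPM in leaders of passages 1, 2, 3 and 4. Only passage 1 leaders lay wholly below the parental libraries, and ACTB fell there by a small amount (-0.43 ± 0.14, edgeR adjusted p = 0.023), a call lost without parental replicate 3 or passage 1 leader replicate 3 (-0.31 to -0.37). ACTG1 was at 8682, 8218 and 10933 CPM in the parental libraries, 5830.0, 4788 and 7741 CPM in the laggers, and 5747, 6161 and 5142, then 7215, 7287 and 6679, then 6433, 7914 and 5697, then 5696, 5490.3 and 6936 CPM in leaders of passages 1, 2, 3 and 4. It was below the parental range in all injected groups, and it fell in laggers (-0.60 ± 0.18, edgeR adjusted p = 0.0139), passage 1 (-0.71 ± 0.18, edgeR adjusted p = 0.00428) and passage 4 (-0.62 ± 0.18, edgeR adjusted p = 0.0167). The lagger call for ACTG1 was lost without parental replicate 3 or lagger replicate 2 (-0.45 to -0.47), and the passage 4 call without parental replicate 3 or passage 4 leader replicate 1 or 2 (-0.49 to -0.58). ACTB and ACTG1 have 10 and 20 named pseudogenes in GENCODE 29, with which their reads could be shared.

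Non-muscle myosin II is the motor of actin contraction. In passage 1 leaders its heavy chains MYH9 and MYH10 fell and its light chains MYL12A and MYL12B rose, while the light chain MYL9 was not called (-0.53 ± 0.26, edgeR adjusted p = 0.105). In laggers both heavy chains fell and MYL12B rose, and MYL12A (0.83 ± 0.38, edgeR adjusted p = 0.0891) and MYL9 (0.59 ± 0.26, edgeR adjusted p = 0.0823) were not called. MYH9, the main heavy chain, was at 1062, 1061 and 1665 CPM in the parental libraries, 442, 672 and 605 CPM in the laggers, and 456, 590.2 and 504, then 928, 1014 and 705, then 878, 1291 and 1229, then 1011, 829 and 1292 CPM in leaders of passages 1, 2, 3 and 4. Laggers and leaders of passages 1 and 2 were below the parental range, and passages 3 and 4 overlapped it. MYH9 fell in laggers (-1.14 ± 0.24, edgeR adjusted p = 0.00145) and in passage 1 leaders (-1.29 ± 0.24, edgeR adjusted p = 0.000442). MYH10, another heavy chain, was at 239, 279 and 246 CPM in the parental libraries, 109, 120.0 and 93.8 CPM in the laggers, and 118, 77.7 and 124, then 183, 182 and 125, then 206, 227 and 217, then 202, 159.9 and 215 CPM in leaders of passages 1, 2, 3 and 4. Every injected library was below the parental ones, and MYH10 fell in laggers (-1.24 ± 0.20, edgeR adjusted p = 0.000202), passage 1 (-1.26 ± 0.20, edgeR adjusted p = 0.000131) and passage 2 (-0.64 ± 0.20, edgeR adjusted p = 0.0228), where the call was lost without parental replicate 2 or passage 2 leader replicate 3 (-0.48 to -0.56).

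The regulatory light chains MYL12A and MYL12B, which carry the phosphorylation that switches the motor on, went the other way in passage 1 leaders. MYL12B was at 439, 412 and 193 CPM in the parental libraries, 928, 735 and 515 CPM in the laggers, and 1012, 976 and 1006, then 549, 548 and 775, then 716, 442 and 559.9, then 728, 818 and 485 CPM in leaders of passages 1, 2, 3 and 4. All injected libraries exceeded the parental ones, and passage 1 leaders were highest. MYL12B rose in passage 1 leaders (1.52 ± 0.30, edgeR adjusted p = 0.000765), in laggers (1.06 ± 0.30, edgeR adjusted p = 0.0102), passage 2 (0.84 ± 0.30, edgeR adjusted p = 0.0415) and passage 4 (0.96 ± 0.30, edgeR adjusted p = 0.0244). Only the passage 1 leader call held in every alternative. The call was lost in laggers without lagger replicate 1 (0.83), in passage 2 without parental replicate 3 or passage 2 leader replicate 1, 2 or 3 (0.55 to 0.93), and in passage 4 without parental replicate 3 or passage 4 leader replicate 1 or 2 (0.67 to 0.90).

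MYL12A, its neighbour in function, had 419.6, 416 and 155 CPM in the parental libraries, 862, 855 and 878 CPM in passage 1 leaders and 937, 1048 and 706 CPM in passage 4 leaders. Neither leader group overlapped the parental one. MYL12A rose in passage 1 (1.39 ± 0.38, edgeR adjusted p = 0.00718) and in passage 4 (1.44 ± 0.38, edgeR adjusted p = 0.0104). MYL9, the light chain of contractile cells, was at 22.7, 21.1 and 27.4 CPM in the parental libraries, 40.3, 28.5 and 38.0 CPM in the laggers, and 18.4, 9.15 and 21.6, then 26.4, 28.2 and 24.1, then 34.5, 43.7 and 30.5, then 43.6, 36.7 and 41.2 CPM in leaders of passages 1, 2, 3 and 4. It was highest in passage 4 leaders and lowest in passage 1 leader replicate 2. Against the parental line MYL9 was called higher in passage 4 alone (0.77 ± 0.26, edgeR adjusted p = 0.0359), and that call was lost without parental replicate 1 or 2 or passage 4 leader replicate 1, 2 or 3 (0.69 to 0.84).

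Of the 4 tropomyosin and caldesmon genes, whose proteins coat filaments, TPM4 had the largest increase. TPM4 was at 313, 297 and 265 CPM in the parental libraries, 305, 310.5 and 333 CPM in the laggers, and 372, 424 and 350.4, then 408, 413 and 429, then 480.3, 449 and 454, then 686, 494 and 490.3 CPM in leaders of passages 1, 2, 3 and 4. Leaders of each passage were above the parental range, and laggers overlapped it. TPM4 rose in passage 4 (0.93 ± 0.15, edgeR adjusted p = 0.000293) and passage 3 (0.66 ± 0.15, edgeR adjusted p = 0.00417). Its call in passage 2 (0.52 ± 0.15, edgeR adjusted p = 0.0152) was lost without parental replicate 3 or passage 2 leader replicate 3 (0.45 to 0.49), and its call in passage 1 (0.39 ± 0.15, edgeR adjusted p = 0.0401) without parental replicate 1, 2 or 3 or passage 1 leader replicate 1 or 2 (0.32 to 0.40). TPM1 was called lower in passage 4 alone (-0.77 ± 0.23, edgeR adjusted p = 0.021), a call lost without parental replicate 1 or passage 4 leader replicate 1 or 3 (-0.66 to -0.79), at 18.2 ± 1.93 CPM beside 31.0 ± 4.83 CPM (SD, n = 3) in the parental line. CALD1 was called higher in laggers (0.48), where the groups overlapped, and in passage 4 (0.50). The lagger call for CALD1 was lost without parental replicate 1 or 2 or lagger replicate 1 or 3 (0.38 to 0.49), and the passage 4 call without parental replicate 1 or 2 or passage 4 leader replicate 1 or 2 (0.41 to 0.56). Both CALD1 calls were also lost with no filter on low counts and with the compared groups only. TPM2 was called in no comparison.

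Of the genes of monomer supply and severing, CFL1 and PFN1 were called higher in some groups. CFL1, cofilin 1, which severs filaments and frees monomers, had 1225, 1001 and 1353 CPM in the parental libraries, 1546, 1781 and 2600.1 CPM in laggers, then 1404, 1445 and 1403, 1677, 1689 and 1796, 2291, 2554 and 1650.1 and 1974, 1969 and 2061 CPM over leader passages 1 to 4. All injected libraries exceeded the parental ones. CFL1 rose in laggers (0.73 ± 0.19, edgeR adjusted p = 0.00643), passage 3 (0.86 ± 0.19, edgeR adjusted p = 0.00387) and passage 4 (0.75 ± 0.19, edgeR adjusted p = 0.00826). CFL1 also rose in passage 2 (0.53 ± 0.19, edgeR adjusted p = 0.044), a call lost without parental replicate 1 or 2 or passage 2 leader replicate 1, 2 or 3 (0.43 to 0.55). The lagger call for CFL1 was lost when only the compared groups were fitted (0.75, edgeR adjusted p = 0.0765). PFN1, profilin 1, which delivers monomers to growing ends, rose in laggers (0.69 ± 0.19, edgeR adjusted p = 0.0103), a call lost without parental replicate 2 (0.59). It also rose in passage 4 (0.60 ± 0.19, edgeR adjusted p = 0.0284), a call lost without parental replicate 1 or 2 or passage 4 leader replicate 2 (0.48 to 0.62). Both PFN1 calls were also lost with no filter on low counts, and the lagger call with the compared groups only. The paralogues CFL2 and PFN2 were called in no comparison, with group means of 79.9 to 137 and 34.7 to 59.6 CPM. CFL1 and PFN1 have 8 and 10 named pseudogenes.

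The Arp2/3 complex, which branches new filaments off old ones, did not move as a unit. Its subunits ARPC2 and ARPC3 rose in all 5 injected groups and ARPC5 in leaders of passages 1, 2 and 4. ARPC1A fell in laggers and passage 1 leaders and ARPC1B in passage 1 leaders, and ACTR2 and ACTR3, the actin-related pair at its core, were called in no comparison. Of the 11 tested members of this role, which include its activators, 2 rose and 2 fell in laggers, 3 rose and 4 fell in passage 1 leaders, and 3, 2 and 3 rose in passages 2, 3 and 4. The shares called were 36.4%, 63.6%, 27.3%, 18.2% and 27.3%, beside 39.3%, 45.7%, 29.9%, 24.6% and 27.7% of all tested genes. Higher calls made up 18.2%, 27.3%, 27.3%, 18.2% and 27.3%, beside 21.5%, 23.2%, 15.1%, 13.8% and 14.8%. Over all 47 members, 3 were called higher in all 5 injected groups, as were 7.32% of all tested genes.

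ARPC3 was at 94.0, 83.8 and 47.7 CPM in the parental libraries, 265, 185 and 153 CPM in the laggers, and 287, 337 and 297, then 148, 166 and 228, then 214, 122 and 161, then 196, 225 and 150.5 CPM in leaders of passages 1, 2, 3 and 4. All 15 injected libraries exceeded the parental ones and passage 1 leaders were highest. It rose 4.09-fold in passage 1 leaders (2.03 ± 0.29, edgeR adjusted p = 5.03e-05), the largest increase of any member in any comparison with the parental line. The log2 fold change was 1.42 in laggers, 1.26 in passage 2, 1.14 in passage 3 and 1.34 in passage 4 (edgeR adjusted p = 0.00105, 0.0034, 0.00776 and 0.00254). The passage 3 call was lost without passage 3 leader replicate 1 (0.91).

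ARPC2 was at 311, 281 and 228 CPM in the parental libraries, 516, 500.1 and 480.4 CPM in the laggers, and 499, 563 and 492, then 404, 450.2 and 504, then 528, 418 and 415, then 542, 572 and 463 CPM in leaders of passages 1, 2, 3 and 4. Again no injected library fell within the parental range, and the injected groups lay close together. On the log2 scale ARPC2 rose by 0.87 ± 0.16 in laggers, and by 0.92 ± 0.16, 0.73 ± 0.16, 0.73 ± 0.16 and 0.94 ± 0.16 over leader passages 1 to 4 (edgeR adjusted p = 0.000465, 0.000217, 0.00257, 0.00305 and 0.000407). These calls held in every alternative run.

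ARPC5 had 163, 209 and 108 CPM in the parental libraries and 405, 507 and 394 CPM in passage 1 leaders, with no overlap. It rose in passage 1 (1.44 ± 0.29, edgeR adjusted p = 0.000789), passage 2 (0.99 ± 0.28, edgeR adjusted p = 0.0158) and passage 4 (1.11 ± 0.28, edgeR adjusted p = 0.00887). The passage 2 call was lost without parental replicate 1 or 3 or passage 2 leader replicate 3 (0.77 to 0.97). Parental replicate 3 was the lowest parental library for ARPC2, ARPC3, ARPC5, MYL12A and MYL12B.

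ARPC1A and ARPC1B encode alternative forms of the same subunit. ARPC1A was at 476, 419 and 459 CPM in the parental libraries, 301, 228 and 405 CPM in the laggers, and 289.7, 277 and 297, then 328, 409 and 388, then 594, 561 and 407, then 515, 604 and 728 CPM in leaders of passages 1, 2, 3 and 4. Laggers and leaders of passages 1 and 2 were below the parental range and passage 4 above it. ARPC1A fell in passage 1 leaders (-0.65 ± 0.20, edgeR adjusted p = 0.0157) and in laggers (-0.54 ± 0.20, edgeR adjusted p = 0.045). The leader call was lost without passage 1 leader replicate 2 (-0.56), and the lagger call without parental replicate 1, 2 or 3 or lagger replicate 1 or 2 (-0.36 to -0.57). ARPC1B was at 662, 517 and 957 CPM in the parental libraries, 311, 231 and 639.6 CPM in the laggers, and 289.6, 538 and 293, then 433, 496 and 544, then 690.0, 766 and 549, then 808, 915 and 1272 CPM in leaders of passages 1, 2, 3 and 4. Its call in passage 1 leaders (-0.93 ± 0.34, edgeR adjusted p = 0.0362) came with overlapping groups, since replicate 2 was at 538 CPM, and was lost without parental replicate 1 or 3 or passage 1 leader replicate 1 or 3 (-0.66 to -1.01).

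Activators of the complex were mostly lower or not called. WASF1 encodes WAVE1, which carries signals from the GTPase Rac to Arp2/3. It was at 35.1, 46.3 and 36.9 CPM in the parental libraries, 15.6, 14.0 and 21.7 CPM in the laggers, and 22.6, 18.2 and 20.6, then 38.2, 34.3 and 28.8, then 44.1, 40.3 and 48.1, then 68.3, 40.0 and 34.4 CPM in leaders of passages 1, 2, 3 and 4. Laggers and passage 1 leaders were below the parental libraries and later passages overlapped them. WASF1 fell in laggers (-1.21 ± 0.25, edgeR adjusted p = 0.00138) and passage 1 leaders (-0.94 ± 0.25, edgeR adjusted p = 0.00552). CTTN, cortactin, which stabilises branches, was at 105, 97.5 and 126 CPM in the parental libraries, 71.0, 86.2 and 92.2 CPM in the laggers, and 56.0, 68.6 and 59.8, then 82.1, 80.9 and 71.2, then 120.2, 151 and 103, then 99.9, 108 and 156 CPM in leaders of passages 1, 2, 3 and 4. Passage 1 leaders were lowest, and CTTN fell there (-0.84 ± 0.20, edgeR adjusted p = 0.00282). WASL and WASF2 were called in no comparison, and the laggers were far apart for WASF2, at 47.9, 209.5 and 128 CPM.

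**Figure D3:**
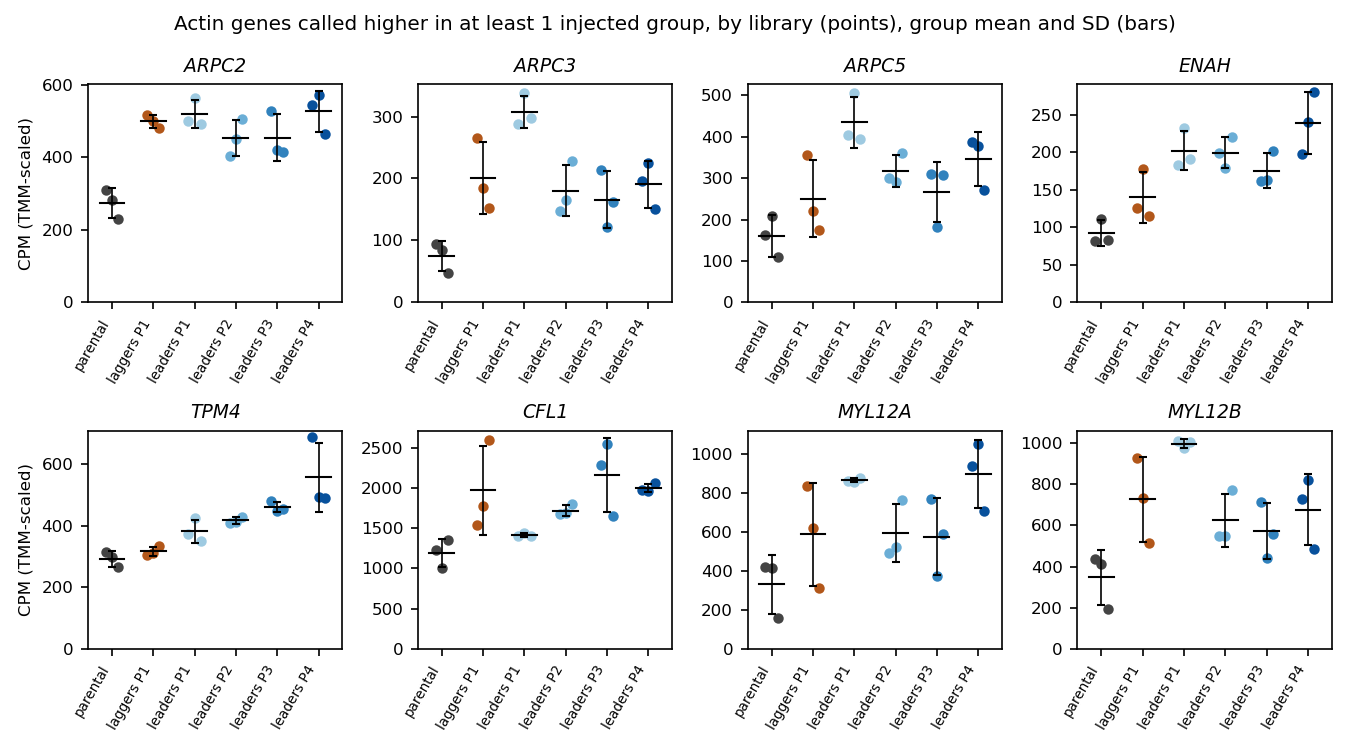
CPM of 8 members called higher in at least 1 injected group, in each library (points) with the group mean and SD (bars, n = 3); axes start at 0. ARPC2, ARPC3 and MYL12B are above the parental libraries in all injected groups, and ENAH and TPM4 are highest in passage 4.

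Among formins and elongation factors, ENAH rose while DIAPH1, DIAPH3 and VASP were lower or not called. ENAH, which protects growing filament ends, was at 81.6, 112 and 83.3 CPM in the parental libraries, 126, 178 and 115 CPM in the laggers, and 183, 232 and 190.3, then 199, 179 and 221, then 161, 163 and 202, then 197, 239.6 and 279 CPM in leaders of passages 1, 2, 3 and 4. Every injected library was above the parental ones. ENAH rose in passage 1 (1.13 ± 0.20, edgeR adjusted p = 0.00034), passage 2 (1.11 ± 0.20, edgeR adjusted p = 0.000786), passage 3 (0.93 ± 0.20, edgeR adjusted p = 0.00347) and passage 4 (1.37 ± 0.20, edgeR adjusted p = 0.000165). In laggers (0.60 ± 0.20, edgeR adjusted p = 0.026) the call was lost without parental replicate 1 or 3 or lagger replicate 2 (0.38 to 0.53). VASP, of the same protein family, had 249, 214 and 363 CPM in the parental libraries, 78.4, 153 and 189.7 CPM in laggers and 108, 132 and 122 CPM in passage 1 leaders. Neither injected group overlapped the parental one, and VASP fell in laggers (-0.97 ± 0.26, edgeR adjusted p = 0.00819) and in passage 1 (-1.19 ± 0.26, edgeR adjusted p = 0.00175). The lagger call for VASP was lost when only the compared groups were fitted (-0.95, edgeR adjusted p = 0.0941). Its calls in passage 2 (-0.73) and passage 4 (-0.72) were lost without parental replicate 1 or 3 or passage 2 leader replicate 1, 2 or 3 (-0.48 to -0.81) and without parental replicate 1 or 3 or passage 4 leader replicate 1, 2 or 3 (-0.48 to -0.82), respectively. The passage 4 call was lost in 9 of 14 alternatives, among them limma-voom, the replicate block and the compared groups only.

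DIAPH1, a formin that builds straight filaments, was at 164, 189.8 and 195 CPM in the parental libraries, 80.4, 88.3 and 72.7 CPM in the laggers, and 93.6, 119 and 80.6, then 177, 175 and 145, then 173, 202 and 184, then 222, 160.2 and 249 CPM in leaders of passages 1, 2, 3 and 4. Laggers and passage 1 leaders were below the parental libraries and all later passages overlapped them. DIAPH1 fell in laggers (-1.19 ± 0.19, edgeR adjusted p = 0.000167) and in passage 1 leaders (-0.91 ± 0.19, edgeR adjusted p = 0.000981). DIAPH3 fell in laggers (-0.87 ± 0.25, edgeR adjusted p = 0.0119), from 58.2 ± 9.27 to 31.8 ± 10.7 CPM (SD, n = 3), a call lost without parental replicate 2 or lagger replicate 2 or 3 (-0.65 to -0.78).

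Of the 4 kinases that act on myosin light chains or cofilin (ROCK1, ROCK2, LIMK1 and LIMK2), 2 fell in laggers and 3 in passage 1 leaders. Of all tested genes, 17.8% and 22.4% were called lower there. LIMK1, which inactivates cofilin by phosphorylation, was at 62.5, 58.4 and 105 CPM in the parental libraries, 25.7, 19.7 and 43.0 CPM in the laggers, and 23.6, 23.9 and 22.4, then 47.6, 36.6 and 33.9, then 42.6, 51.8 and 33.7, then 36.2, 33.7 and 45.2 CPM in leaders of passages 1, 2, 3 and 4. Every injected library was below the parental range, and parental replicate 3 was the highest library. LIMK1 fell in laggers (-1.35 ± 0.29, edgeR adjusted p = 0.00166) and passage 1 leaders (-1.69 ± 0.29, edgeR adjusted p = 0.00024). It was also called lower in passage 2 (-0.93 ± 0.28, edgeR adjusted p = 0.021), passage 3 (-0.82 ± 0.28, edgeR adjusted p = 0.0455) and passage 4 (-0.97 ± 0.28, edgeR adjusted p = 0.0184). Those 3 calls were lost without parental replicate 3 or passage 2 leader replicate 2 or 3 (-0.62 to -0.88) in passage 2, without parental replicate 1 or 3 or passage 3 leader replicate 1 or 3 (-0.50 to -0.94) in passage 3 and without parental replicate 3 or passage 4 leader replicate 1 or 2 (-0.66 to -0.93) in passage 4.

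ROCK2, which phosphorylates myosin light chains and LIM kinases, was at 104, 133 and 114 CPM in the parental libraries, 70.7, 69.4 and 58.6 CPM in the laggers, and 67.5, 95.5 and 74.0, then 91.9, 93.8 and 74.5, then 99.3, 91.9 and 106, then 143, 115 and 113 CPM in leaders of passages 1, 2, 3 and 4. Laggers and passage 1 leaders were below the parental libraries. ROCK2 fell in laggers (-0.82 ± 0.17, edgeR adjusted p = 0.00169) and in passage 1 leaders (-0.57 ± 0.17, edgeR adjusted p = 0.0142), where the call was lost without passage 1 leader replicate 1 or 3 (-0.47 to -0.53). Its paralogue ROCK1 was called in no comparison, with group means of 111 to 154 CPM. LIMK2 was called lower in passage 1 leaders (-0.74 ± 0.29, edgeR adjusted p = 0.0464), a call lost without parental replicate 1, 2 or 3 or passage 1 leader replicate 2 or 3 (-0.54 to -0.83). The LIMK2 call was lost in 11 of 14 alternatives, among them other scaling, no filter, the replicate block and the compared groups only.

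MSN, EZR and FSCN1 tie actin to the membrane or bundle it. MSN, moesin, was at 671, 719 and 679 CPM in the parental libraries, 400.0, 422 and 448 CPM in the laggers, and 396, 244 and 336, then 549, 586 and 537, then 547, 572 and 602, then 609, 499 and 559.9 CPM in leaders of passages 1, 2, 3 and 4. Every injected library was below the parental ones. MSN fell in laggers (-0.71 ± 0.16, edgeR adjusted p = 0.00239) and passage 1 leaders (-1.08 ± 0.16, edgeR adjusted p = 6.42e-05) and was not called in later passages. EZR, ezrin, had 405, 1122 and 425 CPM in passage 1 leaders beside 689, 682 and 909 CPM in the parental line, so 1 passage 1 leader library was above the parental range and the other 2 below it. EZR was called in no comparison. FSCN1, fascin, which bundles filaments in cell protrusions, was called in no comparison and varied from 18.5 to 113 CPM among laggers.

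Leaders and laggers of passage 1 were compared because both came from the first passage. The labels do not say whether they share injections. With edgeR, 0 of the 46 tested members were called, where 0.0618% of all tested genes were called (0.0185% higher and 0.0432% lower). An unadjusted p under 0.05 was found for 11 members, a cut for which no share of all genes is given here. DESeq2 called 1 member (2.17%, beside 2.3% of all genes), and limma-voom called 0 (beside 0.167% of all genes). That member was MYL9 (log2 fold change -1.09, DESeq2 adjusted p = 0.00593; edgeR -1.12 ± 0.26, adjusted p = 0.0965), with 18.4, 9.15 and 21.6 CPM in leaders and 40.3, 28.5 and 38.0 CPM in laggers, groups that did not overlap. For the other large differences the intervals were wide: the log2 fold change was -0.87 ± 0.32 for FLNA (interval -1.54 to -0.20), -0.76 ± 0.27 for ACTN1 (-1.33 to -0.18), 0.80 ± 0.28 for ARPC5 (0.20 to 1.40) and 0.52 ± 0.21 for VCL (0.08 to 0.96). The median over members was 0.01, beside -0.06 over all tested genes.

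Passage 4 leaders were compared with passage 1 leaders to see what repeated passage changed. Of the 46 tested members 19 rose and 0 fell, where 20.0% of all tested genes were called, 10.8% higher and 9.17% lower. At an unadjusted edgeR p under 0.05, 21 members were higher and 1 lower, a cut for which no share of all genes is given here. DESeq2 called 19 higher and 0 lower, beside 25.5% of all genes called. The median log2 fold change was 0.44 over members and -0.02 over all tested genes. Of the 9 tested plaque genes 7 rose, and the exceptions were PTK2 and TLN2. This comparison shares its passage 1 leaders with the comparison of passage 1 leaders against the parental line, in which most of these genes were lower.

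ACTN4 had the largest rise, from 32.1, 42.7 and 29.1 to 199.7, 219.9 and 335 CPM, with no overlap between groups (2.86 ± 0.30, edgeR adjusted p = 1.5e-05, 7.27-fold). PXN went from 54.2, 95.2 and 55.0 to 248, 202 and 374 CPM (2.01 ± 0.29, edgeR adjusted p = 0.00028), and ACTN1 from 181, 94.3 and 182 to 446, 397 and 690.1 CPM (1.75 ± 0.28, edgeR adjusted p = 0.00059). All passage 4 libraries exceeded all passage 1 leader libraries for both genes. FLNA rose by 1.58 ± 0.32 (edgeR adjusted p = 0.00327), ARPC1B by 1.42 ± 0.35 (0.00955), VCL by 1.39 ± 0.21 (0.000404) and MYL9 by 1.30 ± 0.26 (0.00303) on the log2 scale. WASF1 rose by 1.21 ± 0.25 (edgeR adjusted p = 0.00339).

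Smaller rises were those of ZYX (1.19), DIAPH1 (1.11), ARPC1A (1.10), MYH9 (1.02), CTTN (0.98) and MSN (0.77). Those of TLN1 (0.98), MYH10 (0.85), ROCK2 (0.64), TPM4 (0.54) and ACTB (0.50) were each lost when some single libraries were left out. For TLN1 these were passage 1 leader replicate 1 or 3 or passage 4 leader replicate 3 (0.80 to 0.94), and for MYH10 passage 1 leader replicate 2 or passage 4 leader replicate 3 (0.64 to 0.74). For ROCK2 they were passage 1 leader replicate 1 or 3 or passage 4 leader replicate 1 (0.53 to 0.60), for TPM4 passage 1 leader replicate 1 or 3 or passage 4 leader replicate 1 (0.37 to 0.53) and for ACTB passage 1 leader replicate 3 or passage 4 leader replicate 1 or 3 (0.43 to 0.49). EZR was not called (0.59 ± 0.29, edgeR adjusted p = 0.165) but was called higher without passage 1 leader replicate 2 (1.21), the library with 1122 CPM. The Arp2/3 subunit ARPC3 had the lowest value of the comparison (-0.69 ± 0.28, edgeR adjusted p = 0.0906; interval -1.28 to -0.10). With the 3 libraries of most unaligned reads left out, the setting added after the data were seen, 21 members rose and 2 fell. That was 50% of members, beside 29.7% of all genes called.

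**Figure D4:**
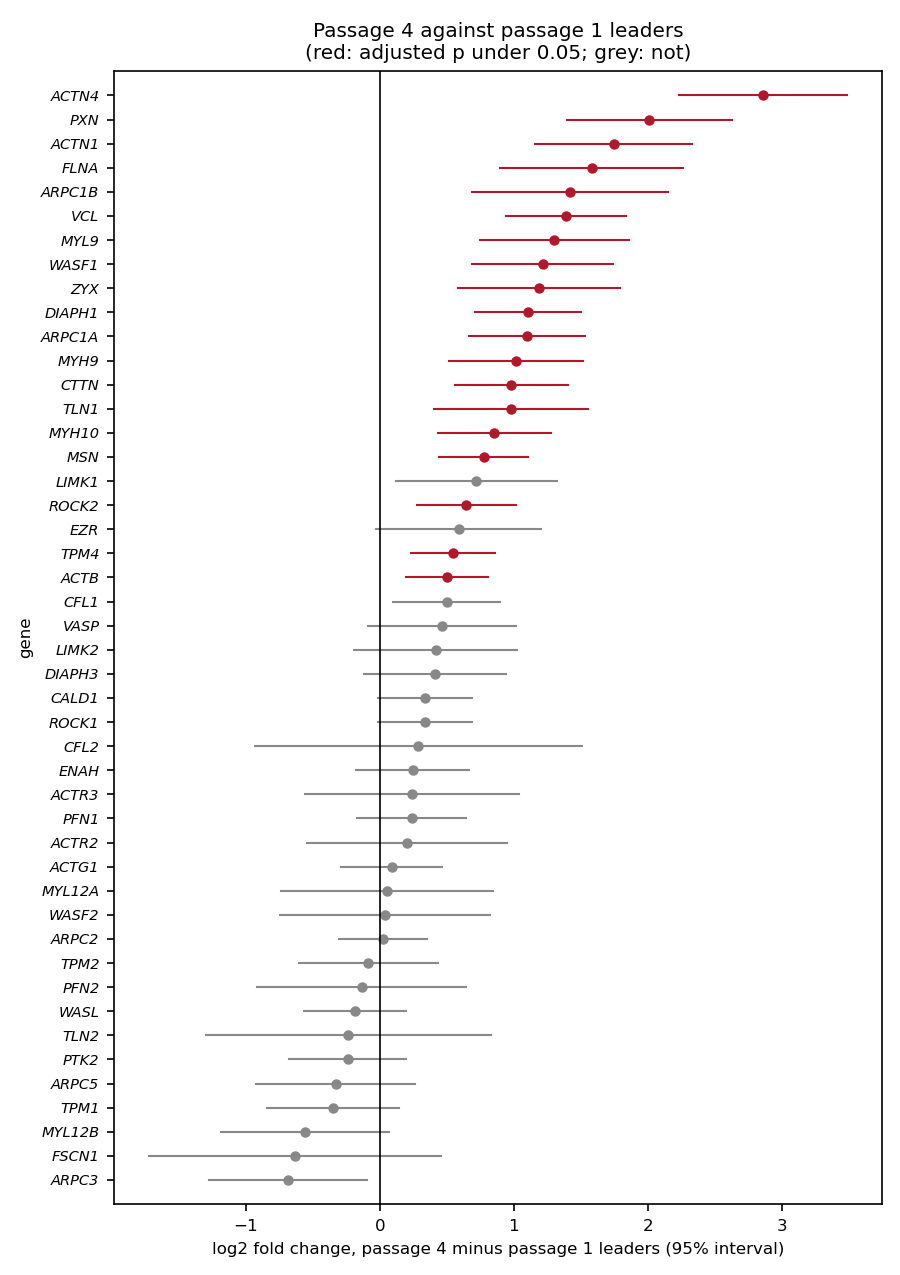
Log2 fold change of passage 4 against passage 1 leaders for 46 members (points) with 95% intervals (lines), sorted by size; red marks adjusted p under 0.05. The 19 called members all lie above 0, led by ACTN4 at 2.86, and no called member lies below 0.

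Closely related genes were also read against each other within each library, as the share of one gene in the summed CPM per kilobase of a pair. ACTB made up 69.3% to 70.3% of ACTB plus ACTG1 in the parental libraries and at least 73.5% in every injected library, up to 80.0% in passage 4. ACTN1 made up 72.4% to 77.7% of the alpha-actinin pair in the parental line and 50.9% to 56.2% in passage 4 leaders. Laggers were at 74.8% to 77.6% and passage 2 at 68.1% to 70.0%, and passage 1 leader replicate 2 was at 55.9% while the highest of its group was at 78.2%. MYL12A made up 43.3% to 46.4% of the MYL12 pair in passage 4 and at most 39.0% in any other library. MYH9 made up 79.2% to 88.4% of the heavy-chain pair over all 18 libraries, with overlapping groups. With 3 libraries against 3, an exact permutation test cannot go below p = 0.10, so these shares are given as ranges. The shares come from 1 fixed exon length per gene and move with any change in transcript isoforms.

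**Figure D5:**
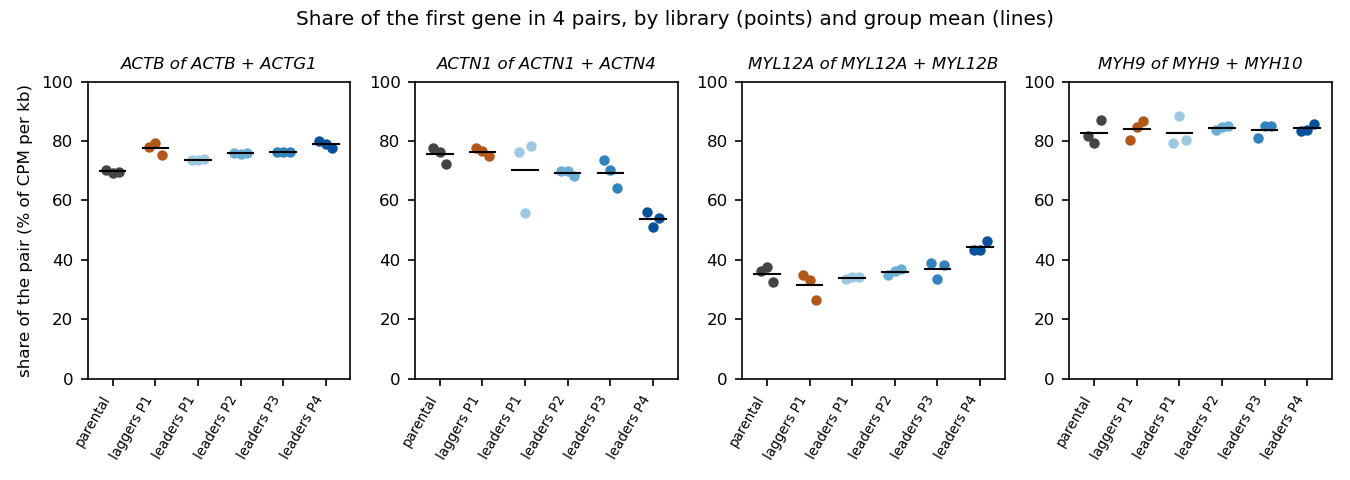
Share of the first gene in 4 pairs (percent of summed CPM per kilobase) in each library (points) with group means (lines); axes run from 0 to 100. The ACTB share is lowest in the parental libraries, the ACTN1 share drops to 50.9% to 56.2% in passage 4, and the MYL12A share is highest there.

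Other genes of the same machinery were read from 3 further lists. Of 23 tested other adhesion plaque genes, 1 rose and 9 fell in laggers, 2 rose and 11 fell in passage 1 leaders, and 7 rose and 2 fell in passage 4 against passage 1. The shares called were 43.5%, 56.5% and 39.1%, beside 39.3%, 45.7% and 20.0% of all tested genes. Among them PDLIM5, an actin-associated LIM protein, fell in laggers (-1.58 ± 0.19, edgeR adjusted p = 1.96e-05) and in passage 1 (-1.43 ± 0.19, edgeR adjusted p = 3.31e-05), and BCAR1, the adhesion scaffold p130Cas, fell in passage 1 (-2.06 ± 0.28, edgeR adjusted p = 3.43e-05) and was higher in passage 4 than in passage 1 (1.64 ± 0.28, edgeR adjusted p = 0.000902). Of 41 tested other actin-binding and myosin genes, 10 rose and 16 fell in laggers and 13 rose and 16 fell in passage 1 leaders (63.4% and 70.7% called, beside 39.3% and 45.7%). MYO10, a motor that carries cargo to the tips of filopodia, went from 1066 ± 199 CPM in the parental line to 41.9 ± 12.3 CPM in passage 1 leaders and 294 ± 105 CPM in passage 4 (SD, n = 3; passage 1 against parental -4.67 ± 0.45, edgeR adjusted p = 1.73e-06). TMSB4X, thymosin beta 4, which holds actin monomers in reserve, rose in laggers (2.00 ± 0.24, edgeR adjusted p = 1.62e-05).

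Of 15 tested SRF and MRTF genes, 5 rose and 1 fell in laggers, 2 rose and 3 fell in passage 1 leaders, and 5 rose and 1 fell in passage 4 against passage 1. The shares called were 40%, 33.3% and 40%, beside 39.3%, 45.7% and 20.0% of all tested genes, so this list was near or below the background in passage 1. SRF itself was at 52.9 ± 12.9 CPM in the parental line, 20.0 ± 2.10 CPM in passage 1 leaders and 56.4 ± 4.60 CPM in passage 4 leaders. It fell in passage 1 leaders (-1.40 ± 0.26, edgeR adjusted p = 0.000512) and was higher in passage 4 than in passage 1 (1.50 ± 0.26, edgeR adjusted p = 0.00127). FOS and EGR1, SRF targets of the immediate early class, rose in passage 1 leaders instead (5.73 ± 0.32, edgeR adjusted p = 1.71e-08, and 1.86 ± 0.36, edgeR adjusted p = 0.000694).

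Several members are also abundant in the connective tissue and muscle in and around a nerve, so marker genes of other cell types were read in the same libraries. Fibroblast markers (10 genes) summed to 119 to 253 CPM in parental libraries, 1274 to 2155 CPM in laggers, 1009 to 2311 CPM in passage 1 leaders and 739 to 1504, 549.8 to 1336 and 234 to 496 CPM in passages 2, 3 and 4. COL3A1 and COL1A2 led this sum, at 952 and 719 CPM in passage 1 leaders, while COL1A1 went the other way, from 159.6 CPM in the parental line to 17.9 CPM. Smooth muscle and pericyte markers (10 genes) summed to 186 to 328 CPM in parental libraries, 176 to 539 CPM in laggers and 558 to 1596 CPM in passage 1 leaders. They summed to 976 to 1308, 719 to 1197 and 649 to 1127 CPM in passages 2, 3 and 4. RGS5 led this sum in every injected group, while MYH11 and DES stayed at or below 2.02 CPM as group means. ACTA2 averaged 2.46 CPM in the parental line, 7.27 CPM in laggers, 4.02 CPM in passage 1 leaders and 16.5 CPM in passage 4. In the same groups CNN1 averaged 0.683, 2.51, 0.479 and 0.172 CPM and TAGLN 8.09, 18.7, 2.91 and 13.9 CPM. TAGLN ran from 1.56 to 50.4 CPM among laggers. SMTN and NOTCH3 had lower means in every injected group than in the parental line. Skeletal muscle markers (8 genes) summed to at most 5.23 CPM in the parental line. In laggers the sum was 14.2 to 392 CPM and in passage 1 leaders 80.6 to 131 CPM, led by MB in both. It was 12.6 to 18.2, 6.42 to 9.76 and 3.66 to 6.21 CPM in passages 2, 3 and 4. MB and TNNT3 averaged 62.3 and 31.3 CPM in passage 1 leaders, while ACTA1, CKM, MYLPF, MYH2 and MYH4 stayed under 0.5 CPM as group means. The skeletal muscle sum and the mitochondrial share were each higher in all passage 1 leader libraries than in any later leader library. The fibroblast and smooth muscle sums of passage 1 leaders overlapped those of passage 2 and 3 leaders. Single fibroblast markers differed from their sum. DCN averaged 9.40 CPM in laggers, 4.09 CPM in passage 1 leaders and at most 0.148 CPM in later leaders. LUM averaged 8.39 CPM, 3.97 CPM and at most 0.849 CPM in these groups. PDGFRA went the other way, from 10.0 CPM in passage 1 leaders to 63.7 CPM in passage 2 leaders. Among laggers the lowest skeletal muscle sum, 14.2 CPM, lay inside the passage 2 range, and the highest, 392 CPM, lay above it. Schwann cell markers (10 genes) summed to 236 to 283 CPM in parental libraries and 32.8 to 97.0 CPM in injected ones, and the defining SOX10 averaged at most 0.128 CPM in any group. Macrophage markers (8 genes) summed to at most 5.32 CPM and 5 endothelial markers to at most 60.2 CPM in any library. The part of these markers in the member results was not tested.

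Some counts may hold reads of other genes. In GENCODE 29, 15 members have named pseudogenes and 20 are overlapped by an exon on the opposite strand, among them VCL, PXN, TLN1, ACTN4 and ARPC1B. The library kit does not mark strand, so such reads cannot be told apart.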

How the data were processed

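RNA was amplified from low input with SMART-Seq v4 and sequenced in pairs, per the labels' protocols. The authors deposited a table of raw counts, with a row per gene and a column per library (18). The submitters' processing notes list HTSeq 0.5.3, STAR 2.5.0a, cutadapt 1.6 and DESeq 1.22.1. No build or annotation is given in the sources used here. The 5 read classes that name no gene took 27.6% to 60.6% of all entries and stayed out of library sizes.

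Counts were fitted with edgeR 4.0.16 (R 4.3.3) in a single model of 18 libraries with a mean for each group, TMM scaling, the edgeR expression filter (16187 genes kept) and quasi-likelihood F tests, with p-values adjusted by Benjamini-Hochberg over all genes tested in each of 7 comparisons. The biological coefficient of variation was 35.5%, and intervals are 95% intervals. On data simulated for passage 1 leaders against the parental line (16187 genes), 17% of 2-fold and 72% of 4-fold changes were recovered. The simulation changed 100 genes at each fold, while 45.7% of all tested genes were called in the data. A call was therefore harder to reach in the simulation, and these rates are not those of the data. Levels are CPM on the scaled library sizes, and levels per kilobase use exon lengths from GENCODE 29. Alternatives were DESeq2 1.42.0, limma-voom (limma 3.58.1), other scaling, no filter, the compared groups only, a replicate block and leaving out single libraries.

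Every member may be named. In each comparison up to 8 called members per direction with the largest change and at least 5 CPM are described with statistics, and of 4 companion lists up to 3 called genes per comparison, smallest adjusted p first. One of these lists and some single genes are not reported here. The members and lists were chosen with earlier results of these data known.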

Additional observations from a re-analysis of the deposited data

Results flagged for a closer look

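For 19 members, the change against the parental line differed between passage 1 and passage 4 leaders, tested directly as passage 4 against passage 1 (log2 fold change, edgeR adjusted p under 0.05). The values were 2.86 for ACTN4, 2.01 for PXN, 1.75 for ACTN1, 1.58 for FLNA, 1.39 for VCL, 1.19 for ZYX and 0.98 for TLN1 in the adhesion plaque. Among Arp2/3 subunits and activators they were 1.42 for ARPC1B, 1.10 for ARPC1A, 1.21 for WASF1 and 0.98 for CTTN. For myosin they were 1.30 for MYL9, 1.02 for MYH9 and 0.85 for MYH10. The others were 1.11 for DIAPH1, 0.77 for MSN, 0.64 for ROCK2, 0.54 for TPM4 and 0.50 for ACTB. In this comparison 20.0% of all tested genes were called, 10.8% higher and 9.17% lower. For all 19, the 3 passage 4 libraries lay above the 3 passage 1 leader libraries. The share of all tested genes without overlap is not given here, so this separation is not read as particular to the members.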

How the results depend on the processing

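Of 119 calls of single members, 76 were kept under every alternative run, and 184 of 1666 alternative values (11%) lost the call. Method changes ended calls too: 21 with the compared groups only, 15 with no filter and 5 with the replicate block. Library totals without scaling factors ended 2, RLE scaling 1 and limma-voom 1. Where only left-out libraries are named above, a call may also have been lost in these settings. Uncalled results with small changes were not followed through the alternatives, so their reversals are not counted. Among the results followed, the 1 reversal was FSCN1 in laggers against the parental line. It was not called and ranged from -0.10 without lagger replicate 3 to 1.05 without parental replicate 3. Fitted with the compared groups only, laggers against the parental line gave 16 called members (2 higher, 14 lower), beside 22.9% of all genes. DESeq2 called 1 member between leaders and laggers, beside 2.3% of all genes. Leaving out single libraries gave 22 to 28 called members in laggers and 25 to 29, 8 to 14, 6 to 13 and 11 to 17 in leaders of passages 1 to 4 against the parental line. It gave 0 to 0 in leaders against laggers and 15 to 19 in passage 4 against passage 1. With the replicate number as a block the counts were 26, 28, 15, 9, 18, 0 and 19. No sign of pairing by number was seen, which cannot show that the samples are unpaired. Same-numbered libraries correlated at -0.34 to 0.35 in their deviations from group means, and different-numbered ones at -0.40 to 0.36. Of the 18 libraries, 4 correlated best with their own number. Other scaling moved no count by over 1.5 times. Most 2-fold changes were missed in the simulation, where few genes changed, while some members with smaller changes were called in the data. With 3 libraries per group, members without a call are not shown to be equal.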
